A study of Tuber borchii with 4 samples.

Results

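The genes described here are 7 gene models of the bianchetto truffle, *Tuber borchii*, that the study named in its nonribosomal peptide synthetase clusters. They were taken by protein ID from 12346 gene models counted in the mycelium. The NRPS cluster holds 3 of them, 1077522, 1099828 and 1122331, and the NRPS-like clusters hold the other 4, 1126844, 966209, 1119995 and 1032817. The study isolated strain SP1 from a truffle and kept its mycelium submerged and unshaken, in darkness at 22 °C, in MPY, PDB, WPGY or WPG medium. A single mRNA library stands for each medium. MPY is a maltose medium (35 g/L) enriched with peptone and yeast extract at 5 g/L each, and PDB is potato dextrose broth at 20 g/L. WPGY is woody plant medium supplied with glucose (20 g/L) and yeast extract (5 g/L), and WPG lacks the yeast extract. The labels give the harvest as day 85 for MPY and PDB and as day 65 for WPGY and WPG, while the headers of the count columns name slightly earlier days for MPY, WPGY and WPG. Medium and culture age therefore cannot be told apart between the MPY or PDB library and the woody-plant libraries. With 1 library per medium, each difference below lies between 2 libraries, has no replicate check and carries no test.

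Nonribosomal peptide synthetases build small peptides without the ribosome. In each module of the enzyme an adenylation domain chooses and activates an amino acid, a carrier domain holds it on a phosphopantetheine arm, and a condensation domain joins it to the growing chain. Fungal siderophores such as ferrichrome, which bind iron, and several fungal toxins and antibiotics are made in this way. NRPS-like enzymes carry an adenylation and a carrier domain but usually lack the condensation domain, and many release their product with a reductase or thioesterase domain. The fungal aminoadipate reductase of lysine synthesis has this architecture. Genes for these enzymes often lie in clusters with genes for tailoring enzymes, transporters and regulators. Neither the count files nor the reference table gives domains or products for the 7 models, so the class of each rests on the study's naming, and which model of a cluster codes for the synthetase itself was not tested.

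The values are read counts per gene model as the authors deposited them, and they were expressed as CPM, the counts of a model in every 1000000 counts of its library. The totals were 47969567 counts in MPY, 157335190 in PDB, 125457058 in WPGY and 116376579 in WPG, so 1 count was worth 0.0208 CPM in MPY, 0.00636 in PDB, 0.00797 in WPGY and 0.00859 in WPG. Since CPM favours long models, the order of levels between genes was read in length-scaled counts. These divide each count by the span of the gene model on the Tubbor1 assembly, introns included, and rescale the library to 1000000. Shares of the library, the make-up of the members' counts and ratios of raw counts are not divided by length, so long models weigh more in them. Ranges in parentheses are 95% intervals, of the Wilson type for shares and exact conditional binomial for ratios between libraries, and they cover counting error only.

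The 7 models lie at 4 places in the Tubbor1 assembly, whose sequences are cited by their number. The NRPS cluster covers 28283 bp of sequence 47. Model 1077522 spans positions 205603 to 208085, model 1099828 spans 210862 to 214735, and model 1122331 spans 216671 to 233885. A further model, 1077527, sits between 1077522 and 1099828, whereas 1099828 and 1122331 are direct neighbours with 1935 bp between them. The lowest-numbered 146 bp of 1077522 overlap model 1077521, and how reads in the overlap were assigned was not tested. Of the NRPS-like models, 966209 (110347 to 113706) and 1119995 (116780 to 123547) are direct neighbours on sequence 20, 1126844 (212395 to 216912) lies on sequence 120, and 1032817 (55280 to 58710) lies on sequence 289.

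The models were long. The 17215 bp of 1122331 were the longest span of all 12345 models with a position, and 1119995, with 6768 bp, stood at place 43. The shortest of the 7, 1077522 with 2483 bp, was still longer than 85.3% of all models, and the median span of the 7 was 3874 bp against 1241 bp over all models.

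All 7 models had counts in every library. That is common, since 10335 of all 12346 models had counts in MPY, 10605 in PDB, 10902 in WPGY and 10838 in WPG. The levels of the 7 differed from gene to gene far more than from medium to medium. In length-scaled counts the highest of the 7 was 357 times the lowest in MPY, 509.5 times in PDB, 1401 times in WPGY and 483 times in WPG. The lowest was 966209 in every library, and these ratios rest on its 11, 31, 9 and 24 counts in that order. The next lowest of the 7 stood at 2.06 in MPY, 0.814 in PDB, 1.55 in WPGY and 1.29 in WPG. The median of the 7 in length-scaled counts was 4.25 in MPY, 3.90 in PDB, 1.80 in WPGY and 1.43 in WPG, against 19.0, 19.9, 19.1 and 19.0 over all models, and only 1126844 and 1077522 lay above the median model.

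The order of the levels per length differed between media. In length-scaled counts 1126844 was first and 1077522 second in MPY (35.6 and 30.9) and in PDB (43.8 and 26.5), while 1077522 led 1126844 in WPGY (40.5 and 34.7) and in WPG (39.7 and 32.8). Model 1032817 was at place 3 in MPY and PDB, with length-scaled counts of 10.8 and 4.68, and at place 5 in WPGY and WPG, with 1.78 and 1.31. The giant model 1122331 was at place 5 in MPY and at place 6 in PDB, WPGY and WPG, so that the longest of the 7 was among the lowest per length. In WPG its 1.29 could hardly be separated from the 1.31 of 1032817. Without replicates no spread is known against which neighbours in this order could be told apart.

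**Figure D1:**
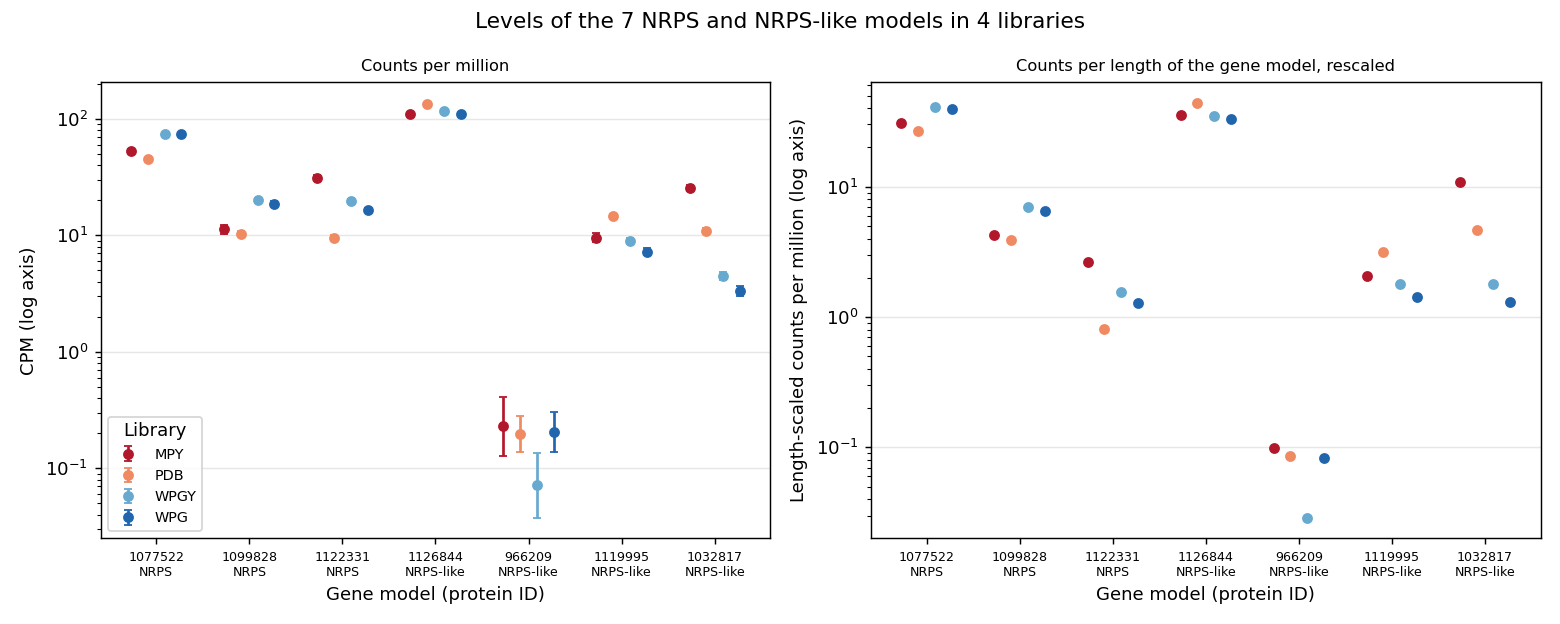
Level of each of the 7 gene models in the MPY, PDB, WPGY and WPG libraries (1 library each), in CPM on the left and in length-scaled counts per 1000000 on the right, both on log axes. Bars on the left are 95% Wilson intervals and cover counting error only. Model 966209 stayed under 1 CPM in all 4 libraries, 1126844 stayed between 110.2 and 135 CPM, and 1032817 stood at 25.3 CPM in MPY and 3.35 CPM in WPG.

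Together the 7 models took nearly the same share of each library. The share was 0.0240% in MPY (0.0236 to 0.0245), 0.0226% in PDB (0.0223 to 0.0228), 0.0243% in WPGY (0.0241 to 0.0246) and 0.0230% in WPG (0.0228 to 0.0233). The highest share was 1.08 times the lowest. Within the 7 the make-up differed between media. The 3 models of the NRPS cluster held 39.6% of the members' counts in MPY and 28.7% in PDB, against 46.8% in WPGY and 47.3% in WPG. Which class held more in the woody-plant libraries depends on length. In length-scaled counts the NRPS cluster took 0.00491% of WPGY and 0.00475% of WPG, against 0.00383% and 0.00356% for the NRPS-like models. Of the counts of all 7 members, not divided by length, model 1032817 held 10.5% in MPY and 4.86% in PDB, against 1.85% in WPGY and 1.45% in WPG. The even sum rested on 1126844 and 1077522, which held most of the members' counts in every library. Without these 2, the other 5 models took 0.00776% in MPY, 0.00456% in PDB, 0.00533% in WPGY and 0.00461% in WPG, and the highest of these shares was 1.70 times the lowest. The same ratio was 5.60 for the 6 polyketide synthase (PKS) and PKS-like models that the study names beside them, and 1.28 without the highest 2 of those, 970716 and 1121687, so that which list was the more even depends on the top models of each.

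**Figure D2:**
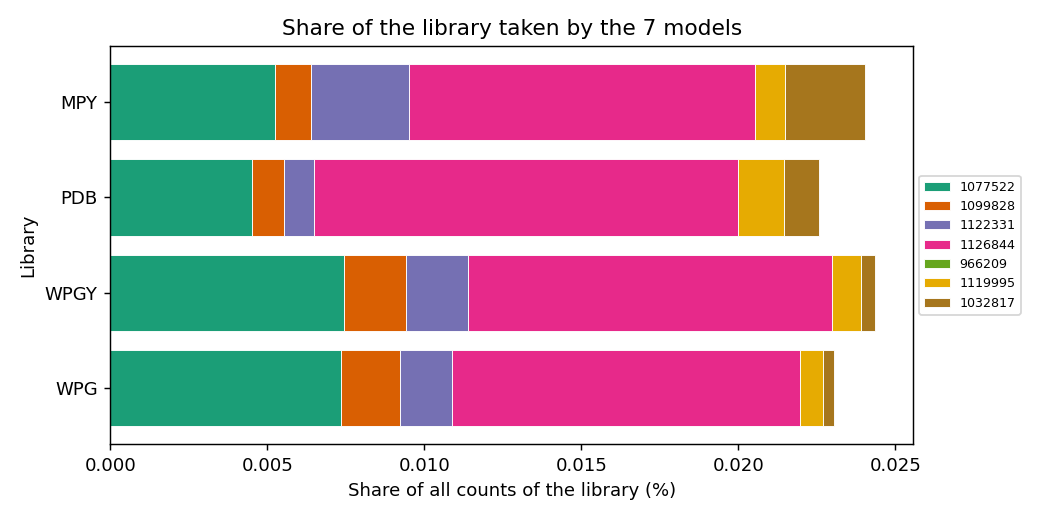
Share of all counts of the library, in percent, taken by each of the 7 models and stacked to their sum, for 1 library per medium. The bars end between 0.0226% in PDB and 0.0243% in WPGY, while the segment of 1032817 is widest in MPY, and 966209 is too small to be seen.

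The first 2 models of the NRPS cluster kept together over the media. Model 1077522 had 2523 counts in MPY, 7078 in PDB, 9321 in WPGY and 8561 in WPG, which were 52.6, 45.0, 74.3 and 73.6 CPM. Model 1099828 had 541, 1621, 2507 and 2183 counts in the same libraries, which were 11.3, 10.3, 20.0 and 18.8 CPM. Both were lower in MPY and PDB than in WPGY and WPG. Relative to WPG, 1077522 was 0.715 times as high in MPY (0.684 to 0.748) and 0.612 times in PDB (0.593 to 0.631), and 1099828 was 0.601 times as high in MPY (0.546 to 0.661) and 0.549 times in PDB (0.515 to 0.586). The raw counts of 1099828 were between 0.214 (MPY) and 0.269 (WPGY) of those of 1077522, a ratio that no scaling between libraries can change. How closely other pairs of models keep such a ratio was not computed.

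The longest model, 1122331, departed from its neighbours in MPY. It had 1496 counts in MPY, 1505 in PDB, 2477 in WPGY and 1931 in WPG, which were 31.2 CPM in MPY (29.6 to 32.8), 9.57 CPM in PDB (9.09 to 10.1), 19.7 CPM in WPGY (19.0 to 20.5) and 16.6 CPM in WPG (15.9 to 17.3). In PDB it was lower than in WPG, at 0.576 times (0.539 to 0.617), a ratio near those of 1077522 and 1099828. In MPY it was 1.88 times as high as in WPG (1.76 to 2.01) while both of them were lower. Its raw counts, not divided by length, were 2.77 times those of the adjacent 1099828 in MPY (2.50 to 3.06), against 0.928 times in PDB (0.865 to 0.997), 0.988 times in WPGY (0.934 to 1.04) and 0.885 times in WPG (0.832 to 0.941). The MPY library thus stood apart from the other 3 in the balance of these 2 neighbouring genes, a measure that does not depend on depth or scaling. How often the balance of 2 adjacent models shifts this far was not computed. Single models beyond 2-fold were common, at 24.0% in MPY over WPG and 17.3% in MPY over PDB.

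**Figure D3:**
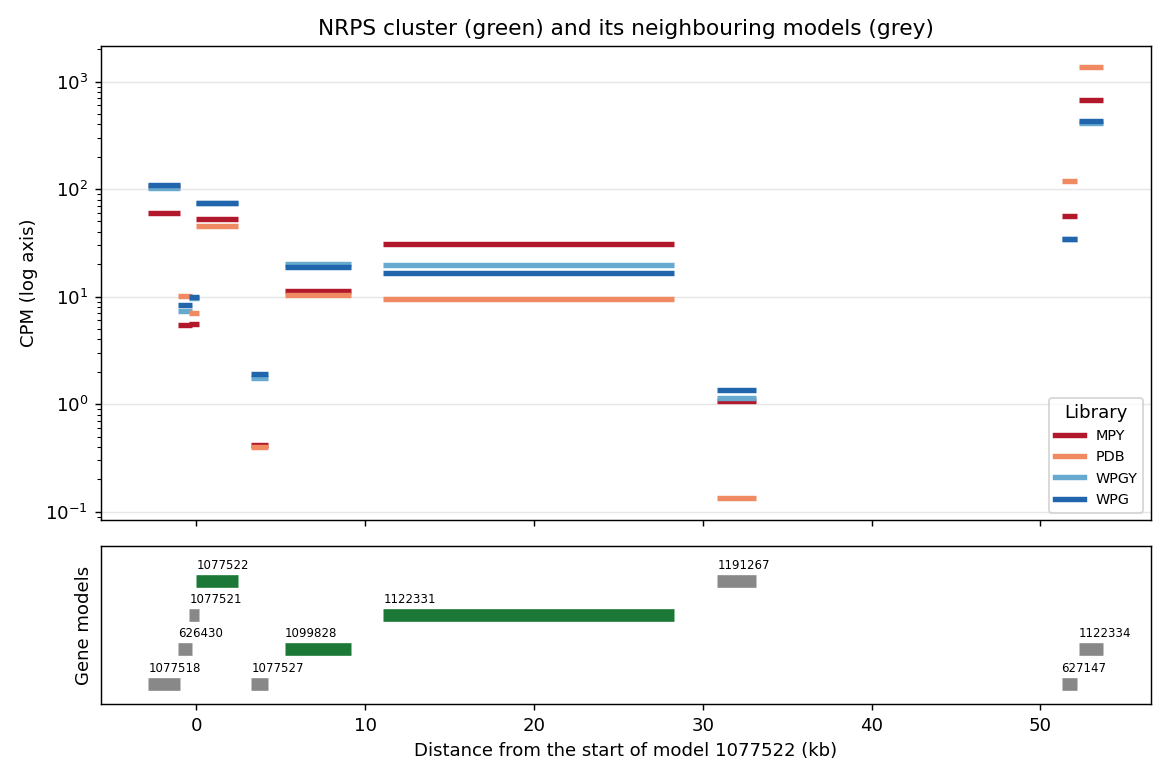
The NRPS cluster on sequence 47 with the 3 models on each side of each member. The upper panel gives the level of each model in CPM on a log axis, drawn over the extent of the model, in MPY, PDB, WPGY and WPG (WPG covers WPGY where both have nearly the same value), and the lower panel gives the extent of the models against the distance in kb from the start of 1077522. Model 1122331 is highest in MPY, at 31.2 CPM, while 1077522 and 1099828 are highest in WPGY.

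Of the NRPS-like genes, 1126844 was the steadiest. It had 5284 counts in MPY, 21239 in PDB, 14535 in WPGY and 12878 in WPG, which were 110.2, 135, 116 and 111 CPM, and its length-scaled rank among all models was 4855, 4497, 4860 and 4980. Relative to WPG it was 0.995 times as high in MPY (0.964 to 1.03) and 1.22 times as high in PDB (1.19 to 1.25). The value for MPY lay on either side of equality according to the scaling, with a log2 difference of -0.01 in CPM and 0.13 with median-of-ratios scaling, which sets the libraries level on their median gene.

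The adjacent NRPS-like models 966209 and 1119995 were far apart in level. Model 966209 had 11 counts in MPY, 31 in PDB, 9 in WPGY and 24 in WPG, which were 0.229 CPM in MPY (0.128 to 0.411), 0.197 in PDB (0.139 to 0.280), 0.0717 in WPGY (0.0377 to 0.136) and 0.206 in WPG (0.139 to 0.307). The interval of WPGY lay just under those of PDB and WPG and overlapped that of MPY, and these few counts allow no order of the media. Model 1119995 had 457 counts in MPY, 2298 in PDB, 1130 in WPGY and 840 in WPG, and was between 17.4 (WPG) and 62.3 (WPGY) times as high as its neighbour in length-scaled counts. Its counts made 9.53 CPM in MPY (8.69 to 10.4), 14.6 in PDB (14.0 to 15.2), 9.01 in WPGY (8.50 to 9.55) and 7.22 in WPG (6.75 to 7.72). It was highest in PDB, at 2.02 times the WPG level (1.87 to 2.19), and was 1.32 times the WPG level in MPY (1.18 to 1.48). Its MPY to PDB ratio was 0.652 (0.589 to 0.721). Besides it, only 1126844 of the 7 was higher in PDB than in MPY by more than the counting interval. That is common at this depth, since the interval lay below 1 for 49.5% of 8430 models with at least 1 CPM in either library.

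Model 1032817 varied most. It had 1216 counts in MPY, 1725 in PDB, 565 in WPGY and 390 in WPG, which were 25.3 CPM in MPY (24.0 to 26.8), 10.96 in PDB (10.5 to 11.5), 4.50 in WPGY (4.15 to 4.89) and 3.35 in WPG (3.03 to 3.70). No 2 of these intervals overlapped, but at this depth that says little about the gene. Among models with at least 1 CPM in either library, the counting interval of the ratio lay clear of 1 for 91.0% in MPY over WPG. The same held for 90.2% in MPY over PDB and 47.1% in WPGY over WPG. The MPY level was 7.56 times that of WPG (6.74 to 8.50), 5.63 times that of WPGY (5.09 to 6.23) and 2.31 times that of PDB (2.15 to 2.49), and the PDB level was 3.27 times that of WPG (2.93 to 3.66). Its length-scaled rank among all models was 6844 in MPY and 7469 in PDB, against 8458 in WPGY and 8650 in WPG. Set against the steady 1126844 of the same library, its raw counts were 0.230 times as many in MPY, 0.0812 times in PDB, 0.0389 times in WPGY and 0.0303 times in WPG. Because 1126844 varied little in CPM, these ratios largely repeat the CPM pattern and are no separate evidence.

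A difference of more than 2-fold was read on log2(CPM + 1), with a pseudocount of 1, among models with at least 1 CPM in either library. Model 966209 did not pass this filter in any pair of libraries, so 6 of the 7 could be read. For MPY over WPG, 1 of the 6 passed the limit, 1032817 with a log2 difference of 2.60, and it was higher in MPY. Among all 8742 models that passed the filter, 24.0% lay beyond 2-fold, 9.60% higher and 14.4% lower, and 1032817 was at place 126 from the highest. For PDB over WPG, 1 of the 6 passed, again 1032817 with 1.46, beside 19.1% of 8701 models, 7.65% higher and 11.4% lower. For MPY over PDB, 2 of the 6 passed, 1122331 with 1.61 and 1032817 with 1.14, both higher in MPY, beside 17.3% of 8430 models, 8.37% higher and 8.93% lower. For WPGY over WPG none of the 6 passed, beside 0% of 8641 models. With 6 members these counts lie within about 1 gene of the background shares, so the number of large differences is no result about the members as a group. The comparisons of MPY and of PDB with WPG share the WPG library.

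The median log2 difference of the 6 was 0.18 for MPY over WPG, -0.21 for PDB over WPG and 0.17 for MPY over PDB, beside -0.10, -0.05 and -0.07 over all models that passed the filter. With 966209 included the median of the 7 was 0.03, -0.01 and 0.12 in the same pairs, so the first 2 values rest on the filter. In MPY over WPG and in PDB over WPG 3 members were higher and 3 lower, with 1126844 at -0.01 among the lower for MPY, which median-of-ratios scaling put at 0.13. Median-of-ratios scaling put the median of all models at 0.03 in place of -0.10 for MPY over WPG and at 0.05 in place of -0.05 for PDB over WPG. For MPY over WPG it changed the split of the models beyond 2-fold to 1041 higher and 1024 lower, where CPM gave 839 higher and 1260 lower. Under it 1122331 also passed the limit for MPY over WPG, with 1.01, and 1119995 for PDB over WPG, with 1.03. The counting interval of the ratio lay clear of 1 for 5 of the 6 in MPY over WPG and for 6 of the 6 in PDB over WPG, beside 91.0% and 92.6% of all models, and therefore says little about the members at this depth.

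**Figure D4:**
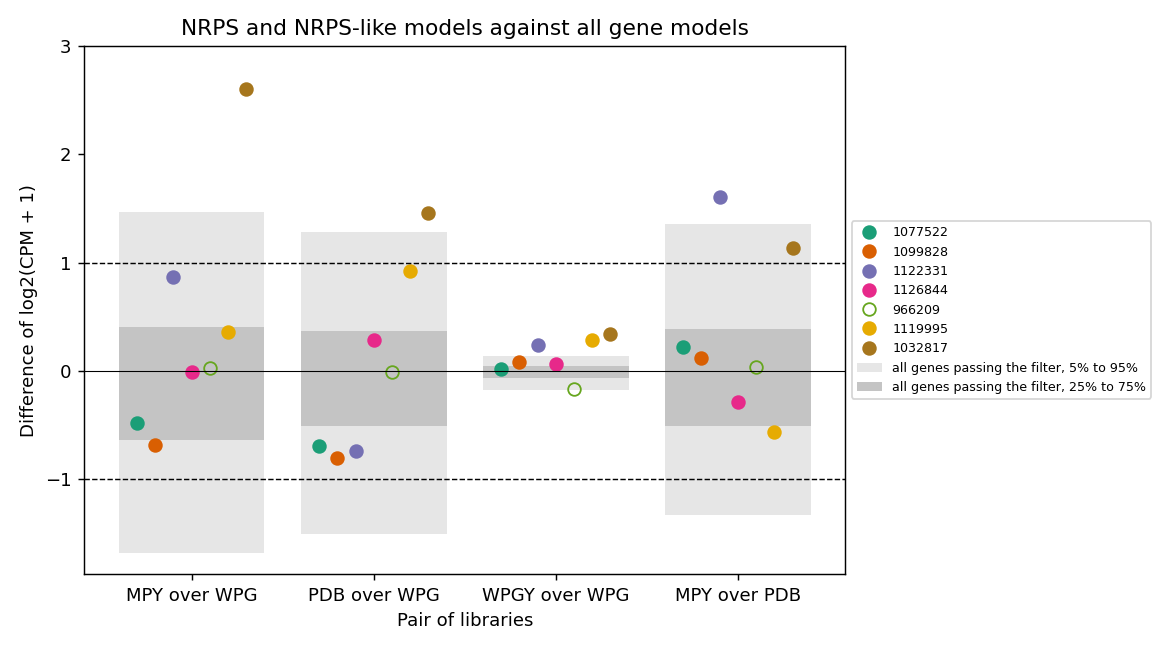
Difference of log2(CPM + 1) of each of the 7 models for 4 pairs of libraries, with the quartiles (dark grey) and the 5% to 95% range (light grey) of all models with at least 1 CPM in either library, and dashed lines at 2-fold. The open circle is 966209, which did not pass the filter. Model 1032817 stands at 2.60 for MPY over WPG, and 1122331 at 1.61 for MPY over PDB.

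By their composition WPGY and WPG differ in yeast extract, and these libraries lay close together. With 1 CPM added, 86.4% of the 8641 models lay within 10% of each other, but this held for 3 of the 6 members, 1077522, 1099828 and 1126844. The other 3 were higher in WPGY. Model 1032817 was 1.34 times as high as in WPG (1.18 to 1.53), 1119995 was 1.25 times as high (1.14 to 1.37) and 1122331 was 1.19 times as high (1.12 to 1.26). In log2(CPM + 1) these differences of 0.34, 0.28 and 0.24 stood at places 24, 46 and 95 from the highest of 8641. All 6 members lay above 0, with a median of 0.16 beside -0.01 over all models, and the counting interval lay above 1 for 5 of the 6, beside 20.9% of all models. Lying above 0 is common in itself, since 38.3% of all models stood above even the lowest of the 6, 1077522 at 0.01. The 6 PKS and PKS-like models also lay above 0, with a median of 0.08, but the counting interval lay above 1 for only 2 of them. The places moved with the setting. With all libraries thinned to the total of MPY, 1032817 stood at 0.17 and place 358 of 8651, 1119995 at 0.25 and place 144, and 1122331 at 0.25 and place 134. These are small differences between 2 libraries, and how far 2 libraries of the same medium would differ is not known.

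The 3 models on each side of each member gave 25 neighbouring models, of which 20 passed the filter in the comparisons with WPG. Several of the neighbours beyond 2-fold lower passed the filter only through the woody-plant libraries, namely 1077527, 1084230 and, for PDB, 1191267, so their values are given as a description and no count is drawn from them. On sequence 47, model 1077527, which lies between 1077522 and 1099828, had 0.417 CPM in MPY and 0.400 in PDB, against 1.74 in WPGY and 1.89 in WPG. Model 1191267, the next after 1122331, had 1.06 CPM in MPY and 0.133 in PDB, against 1.13 in WPGY and 1.35 in WPG. Its low value in PDB, 21 counts, was 0.0989 times the WPG level (0.0596 to 0.157). Farther along, 627147 had 56.3 CPM in MPY and 119 in PDB, against 34.3 in WPGY and 34.5 in WPG, and 1122334 had 676 in MPY and 1353 in PDB, against 414 and 428. In MPY over PDB, 1191267 had the same order as 1122331, with a log2 difference of 0.86, but it passed the filter only through MPY. The cluster member 1077522 was also higher in MPY than in PDB, at 1.17 times (1.12 to 1.22). For 1099828 the ratio was 1.09, with an interval that included equality (0.991 to 1.21). Models 627147 and 1122334 had the opposite order. So did the 3 models before 1077522, with log2 differences of -0.81, -0.78 and -0.30. Over all 8430 models that passed the filter, the counting interval of this ratio lay above 1 for 40.6% and below 1 for 49.5%.

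Around 1032817 on sequence 289 none of the 6 neighbours was higher in MPY than in WPG in CPM. The one nearest to equality had a log2 difference of -0.06, and other scalings were not tested on the neighbours. Over all 8742 models that passed the filter, the counting interval of this ratio lay above 1 for 40.3% and below 1 for 50.8%. The adjacent 1055851 had 43.8 CPM in MPY and 64.6 in PDB, against 61.3 in WPGY and 60.2 in WPG, and 1092427, the farthest of the 3 on the other side, had 1853 in MPY and 822 in PDB, against 5613 in WPGY and 5673 in WPG. The ratio of MPY to WPG was 0.728 for 1055851 (0.693 to 0.764) and 0.327 for 1092427 (0.324 to 0.329). Around the steady 1126844 on sequence 120, model 1084230 had 17 counts in MPY and 4 in PDB, against 1528 in WPGY and 1611 in WPG, or 0.354 and 0.0254 CPM against 12.2 and 13.8 CPM. The 3 models before 966209 on sequence 20 were, like it, under 1 CPM in every library, while 1119997, beyond 1119995, had between 41.5 and 44.5 CPM in the 4 libraries.

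Of the other genes of secondary metabolism, the study also names 6 PKS and PKS-like models. Polyketide synthases build carbon chains from acyl units, the fungal route to many pigments. For MPY over WPG none of the 6 was beyond 2-fold higher and 2 were lower, beside 9.60% higher and 14.4% lower over all models, with a median log2 difference of -0.56. For PDB over WPG 2 were higher and none lower, beside 7.65% higher and 11.4% lower over all models, with a median of 0.41. For MPY over PDB none was higher and 2 were lower, beside 8.37% higher and 8.93% lower over all models, with a median of -0.33. In each pair the 2 models were 970716 and 1121687. The highest PKS-like model, 970716, had 189 CPM in MPY and 1178 in PDB, against 478 in WPGY and 446 in WPG, and the lowest, 1076327, stayed between 1.56 and 1.76 CPM. With 1 library per medium the difference between the 2 lists was not tested.

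Profiles over the 4 libraries were compared by the Euclidean distance of log2(CPM + 1) after each gene's own mean was subtracted, among 6895 models with a mean of at least 10 CPM. Nearest to 1032817 were 1070269 on sequence 1 (147.6 CPM in MPY, 62.7 in PDB, 26.6 in WPGY and 26.8 in WPG), at a distance of 0.26, and 1062971 on sequence 52 (361, 147, 61.1 and 61.4 CPM), at 0.27. Both had higher levels in MPY than in PDB but, unlike 1032817, nearly equal levels in WPGY and WPG. Nearest to 1122331 were 1069318 on sequence 428 (259, 80.0, 153 and 149 CPM), at 0.15, and 1177106 on sequence 99 (2025, 649, 1179 and 1179 CPM), at 0.17. The distances rest on 4 libraries, and the files give no function for these models.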

How the data were processed

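Read quality was checked by the authors in FastQC and reads were trimmed in Trimmomatic. Alignment was done in STAR against the genome of another strain, Tbo3840 (Tubbor1), and counts per gene came from featureCounts. The kallisto values their processing notes also name were not used here. The deposited values are these raw read counts, not normalized for depth or length. Strand and multi-mapping settings are not given in the sources used here, so reads shared between similar synthetase domains could not be examined. No p-value was computed. The members and lists were chosen with earlier results of these data known.

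Counts were converted to CPM and ranked over all 12346 models. Positions and spans came from the GenBank annotation table of Tubbor1, which matched 12345 models and gives no product names, so a list of further adenylation or carrier genes was not formed. Genes named are the 7 members, neighbours beyond 2-fold in MPY or PDB over WPG (1055851, 1119997 and the PKS-like 1121687 were added after their values were seen), the highest and lowest PKS models, and the 2 nearest profiles of the 2 most variable members. Alternatives were pseudocounts of 0.1 and 5, other filters, median-of-ratios scaling, totals without the 10 highest genes, length scaling, thinning (seed 7) and leaving out members. WPGY as denominator, length scaling of the 2-fold count and leaving out the 2 highest models of a list were chosen after seeing the data. The fold limit and the intervals were run on data simulated with counting error only, with large changes planted in well-counted genes. This checks the code, and it cannot show how far cultures differ or how low genes behave. Computations ran in Python 3.11.15 with scipy 1.17.1, numpy 2.4.6 and pandas 2.3.3, and matplotlib 3.10.9 drew the plots.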

Additional observations from a re-analysis of the deposited data

How the results depend on the processing

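No paired analysis was possible because each medium has 1 library, and the scaling by coding length was not run because proteins were not at hand. None of the 154 recomputed log2 differences of members changed sign where the member was beyond 2-fold, and 5 of smaller size did, for 1126844 and 966209. The first part was largely fixed beforehand. A pseudocount cannot change a sign, and the scalings shift a pair of libraries by much less than 2-fold. The number of members beyond 2-fold was 2 in place of 1 for MPY over WPG with median-of-ratios scaling. For PDB over WPG it was 2 with median-of-ratios scaling and with a pseudocount of 0.1, and 0 with a pseudocount of 5, and for MPY over PDB it was 1 in place of 2 with a pseudocount of 5. With a pseudocount of 5, 516 models in all were beyond 2-fold higher and 510 lower for PDB over WPG, against 666 and 996 with a pseudocount of 1. A larger pseudocount shrinks differences of low genes by construction. In the other 29 of 34 recomputations this number did not change, among them those with WPGY in place of WPG. Part of these 29 was also largely fixed beforehand. For WPGY over WPG 0 of 8641 models were beyond 2-fold as reported, and 1 of 8880 with length-scaled counts, so the members' number could hardly move. Dropping the filter could add no member, because the pseudocount of 1 holds such low models within 2-fold. For MPY over WPG the totals then stayed at 839 higher and 1260 lower.

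The members' share of the library, given in the order MPY, PDB, WPGY and WPG, was 0.00864%, 0.00830%, 0.00874% and 0.00831% with length-scaled counts. It was 0.0260%, 0.0240%, 0.0274% and 0.0260% when the 10 highest genes of each library were left out of the total. Without 1126844 it was 0.0130%, 0.00906%, 0.0128% and 0.0120%, and without 1077522 it was 0.0188%, 0.0181%, 0.0169% and 0.0157%. Without 1122331 it was 0.0209%, 0.0216%, 0.0224% and 0.0214%, and without 1099828 it was 0.0229%, 0.0215%, 0.0223% and 0.0212%. Without 1119995 it was 0.0231%, 0.0211%, 0.0234% and 0.0223%, and without 1032817 it was 0.0215%, 0.0215%, 0.0239% and 0.0227%. Without both 1126844 and 1077522 it was 0.00776%, 0.00456%, 0.00533% and 0.00461%. Depth is most limiting for 966209, with at most 31 counts in a library.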
